A study of Arabidopsis thaliana with 12 samples.

Results

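The genes described here are 3 genes of the unfolded protein response of the endoplasmic reticulum (ER): BZIP60 (AT1G42990), CRT1b (AT1G09210) and ATERDJ3B (AT3G62600). They were taken as the probe sets that the array's gene table assigns to these names, and each had 1 probe set, among 13356 genes that could be named. RNA came from roots of 4-week-old Arabidopsis thaliana raised hydroponically in days of 8 h light and 16 h dark, and was hybridised to 12 Affymetrix ATH1 arrays. The 4 groups of 3 biological replicates were ozs3 after 24 h at 4 °C, Col-0 after 24 h at 4 °C, ozs3 kept at 23 °C and Col-0 kept at 23 °C. The mutant ozs3 (overly zinc sensitive 3) was made in the background of Col-0, which served as wild type. The labels name neither the mutated gene nor the number of plants behind a replicate.

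When unfolded proteins build up in the ER, membrane-bound sensors switch on genes for chaperones, folding enzymes and the removal of misfolded proteins. In plants 1 branch runs through the RNA-splicing kinase IRE1, which removes a short stretch from the BZIP60 messenger RNA so that an active transcription factor is made. A further branch runs through BZIP17 and BZIP28, which are cut free from the membrane by site-1 and site-2 proteases in the Golgi. CRT1b is a calreticulin, a calcium-binding chaperone that holds newly made glycoproteins through their sugars, and ATERDJ3B is a J protein of the ER lumen that works with the chaperone BiP. The array gives 1 value for each transcript, so spliced and unspliced BZIP60 were not measured separately.

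Levels below are log2 intensities, on which a step of 1 is a doubling, given as mean ± SD of 3 arrays. Differences are log2 values ± SE from limma, and a gene is said to be higher or lower, or to have risen or fallen, only at an adjusted p under 0.05. Arrays of a group correlated at 0.994 to 0.997 across probe sets. No array value of the 3 genes lay at or below 5, the limit used for dim probe sets. Of 16 listed root markers, the 3 with a named probe set (EXPA7, EXPA18 and XTH26) all lay above that limit, at 5.84 to 9.70 across arrays. Of 10 listed shoot markers, PRK and SBPASE stayed at or below 4.72 and RCA lay at 6.46 to 7.78. Roots were bulk tissue, so fewer cells of a type and less RNA per cell cannot be told apart.

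In the cold the regulator and the chaperones parted by genotype. BZIP60 was highest in cold-treated ozs3, whereas CRT1b and ATERDJ3B were highest in cold-treated Col-0. Between genotypes all 3 genes passed the test at 4 °C, where 14.6% of all 22746 probe sets did, and none at 23 °C, where 6.34% did. In the cold 2 of the 3 genes changed in each genotype, and this is little above the share of all probe sets, 51.1% in ozs3 and 43.9% in Col-0. The difference of the cold responses (interaction) passed for 2 of the 3 genes and for 10.1% of probe sets.

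The arrays compared did not overlap for 2 of the 3 genes between 4 °C and 23 °C in ozs3 (58.4% of all probe sets) and for 3 of 3 in Col-0 (52.1%). Between genotypes they did not overlap for 3 of 3 genes at 4 °C (30.8%) and for 1 of 3 at 23 °C (26.0%). Of these shares, that between genotypes at 4 °C stood farthest from the one over all probe sets. The 3 genes were chosen with earlier results of these data known, so neither this share nor the share called is independent of that choice.

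BZIP60 stood at 11.34, 11.52 and 11.55 in ozs3 at 4 °C and at 10.17, 10.24 and 10.58 in ozs3 at 23 °C. All 3 cold arrays of ozs3 lay above all 3 control arrays, by a wide gap. In Col-0 it stood at 10.78, 10.75 and 10.64 at 4 °C and at 10.59, 10.30 and 10.61 at 23 °C. The Col-0 arrays at 4 °C lay just above those at 23 °C, without overlap. In ozs3 cold raised BZIP60 by 1.14 ± 0.12 (adjusted p = 2.34e-06). In Col-0 the difference was 0.23 ± 0.12 and did not pass (adjusted p = 0.146, 95% interval −0.03 to 0.48), and with Col-0 replicate 2 at 23 °C left out it was 0.13 (adjusted p = 0.469). The cold response itself differed between the genotypes, by 0.91 ± 0.17 (ozs3 minus Col-0, adjusted p = 0.00479).

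Between genotypes at 4 °C, BZIP60 averaged 11.47 ± 0.11 in ozs3 and 10.72 ± 0.07 in Col-0, so that it was 1.68-fold higher in ozs3 (0.75 ± 0.12, adjusted p = 0.00101). At 23 °C it averaged 10.33 ± 0.22 in ozs3 and 10.50 ± 0.17 in Col-0, and the arrays overlapped (−0.17 ± 0.12, adjusted p = 0.481, 95% interval −0.42 to 0.09). Leaving out 1 array moved that difference between −0.29 and −0.09, and it passed in no case. The order of the groups was therefore ozs3 at 4 °C, then Col-0 at 4 °C, then both groups at 23 °C, and in this order only the first step passed the test. The highest of the 3 ozs3 arrays at 23 °C, replicate 3, also held the cold gene COR15A at 7.60, against 5.24 and 5.23 in the other two. Without that array the cold rise of BZIP60 in ozs3 was 1.26 (adjusted p = 1.26e-06).

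Against BZIP60, CRT1b had the reverse sign in the genotype difference at 4 °C and in the interaction. Its levels were 11.82, 11.57 and 11.60 in ozs3 at 4 °C and 11.33, 11.17 and 11.16 in ozs3 at 23 °C. In Col-0 they were 12.43, 12.30 and 12.44 at 4 °C and 11.15, 10.87 and 10.91 at 23 °C. No 2 groups overlapped, and the 3 cold Col-0 arrays stood clear of all other arrays. Cold raised CRT1b 1.36-fold in ozs3 (0.44 ± 0.10, adjusted p = 0.00188) and 2.66-fold in Col-0 (1.41 ± 0.10, adjusted p = 1.04e-07). The rise in ozs3 was smaller than that in Col-0 by 0.97 ± 0.14 (interaction −0.97, adjusted p = 0.00140).

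At 4 °C CRT1b averaged 11.66 ± 0.13 in ozs3 and 12.39 ± 0.08 in Col-0, so that it was 1.65-fold lower in the mutant (−0.72 ± 0.10, adjusted p = 4.14e-04). At 23 °C it averaged 11.22 ± 0.09 in ozs3 and 10.98 ± 0.15 in Col-0. That difference of 0.24 ± 0.10 had the opposite sign and did not pass (unadjusted p = 0.0282, adjusted p = 0.179, 95% interval 0.03 to 0.46), although the arrays did not overlap. In rank the groups ran from Col-0 at 4 °C through ozs3 at 4 °C and ozs3 at 23 °C to Col-0 at 23 °C, and only the last step did not pass.

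ATERDJ3B varied least of the 3. It stood at 10.33, 10.31 and 10.40 in ozs3 at 4 °C and at 10.40, 10.36 and 10.34 in ozs3 at 23 °C. The Col-0 arrays read 10.68, 10.60 and 10.93 at 4 °C and 10.43, 10.46 and 10.35 at 23 °C. Thus 3 of the 4 groups lay within a narrow band, and cold-treated Col-0 lay above them without overlap. In ozs3 the cold difference was −0.02 ± 0.09 (adjusted p = 0.879), with a 95% interval of −0.21 to 0.17. In Col-0 the gene rose 1.25-fold (0.32 ± 0.09, adjusted p = 0.00810).

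For ATERDJ3B the genotypes differed at 4 °C, at 10.35 ± 0.05 in ozs3 and 10.74 ± 0.17 in Col-0 (−0.39 ± 0.09, adjusted p = 0.00966). At 23 °C it averaged 10.37 ± 0.03 in ozs3 and 10.41 ± 0.06 in Col-0 (−0.05 ± 0.09, adjusted p = 0.828). The interaction was −0.34 ± 0.12 and did not pass (unadjusted p = 0.0166, adjusted p = 0.101), so the cold response of ATERDJ3B is not shown to differ between the genotypes.

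**Figure D1:**
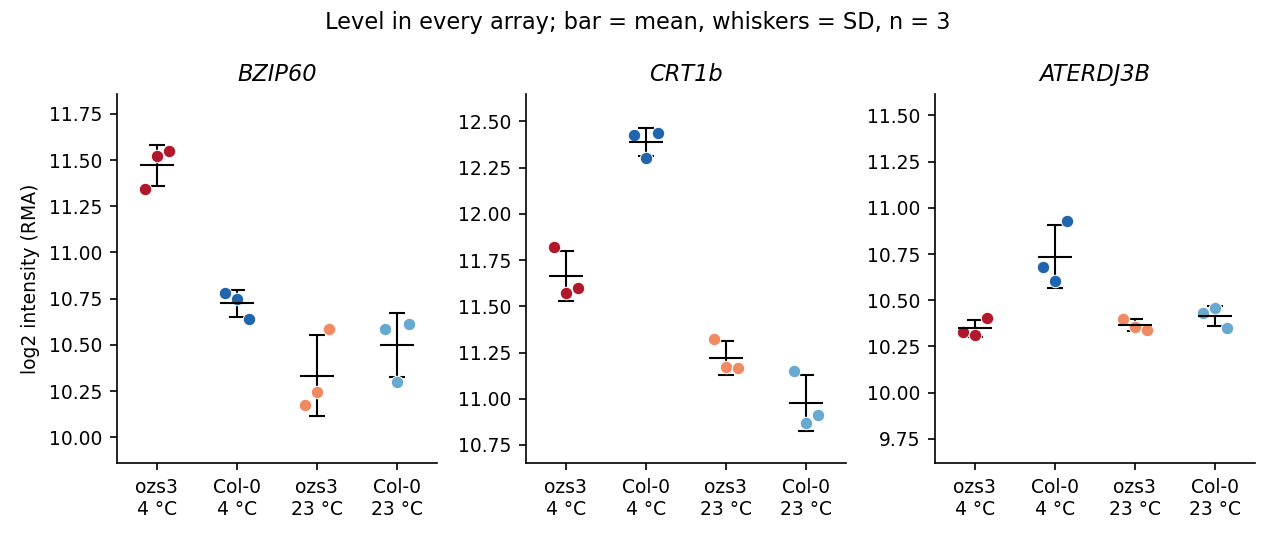
Log2 intensity (vertical axis, a span of 2 in each panel but at different positions) of BZIP60, CRT1b and ATERDJ3B in ozs3 and Col-0 at 4 °C and at 23 °C. Dots are single arrays, the horizontal bar is the mean and the whiskers are the SD of 3 arrays; cold-treated ozs3 is highest for BZIP60, at 11.47, and cold-treated Col-0 is highest for CRT1b and ATERDJ3B, at 12.39 and 10.74.

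Between genotypes at 23 °C 1442 probe sets were called in all. With the replicate number as a block the count was 2253, and none of the 3 genes passed then either.

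**Figure D2:**
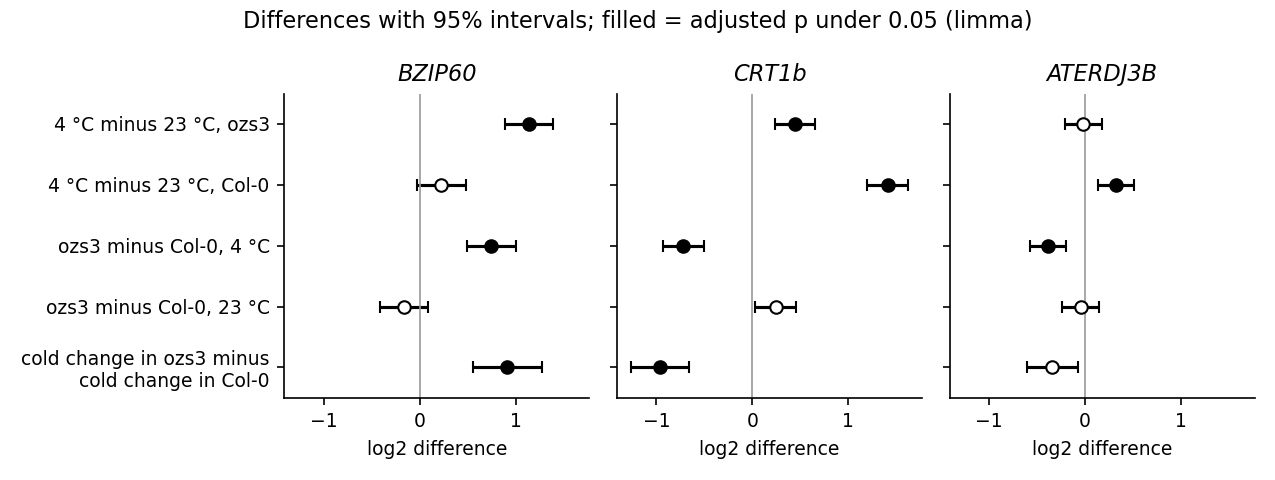
Log2 differences (horizontal axis) with 95% intervals for the 3 genes in the 5 comparisons listed on the vertical axis, with filled points at an adjusted p under 0.05. BZIP60 lies on the positive side for ozs3 against Col-0 at 4 °C (0.75), where CRT1b (−0.72) and ATERDJ3B (−0.39) lie on the negative side.

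Over the 12 arrays BZIP60 and CRT1b had a Pearson correlation of 0.34, BZIP60 and ATERDJ3B one of −0.16, and CRT1b and ATERDJ3B one of 0.74. All 3 values come from the same arrays in 4 groups and are descriptions of these samples. By rank (Spearman) the value was 0.57 for BZIP60 and CRT1b and −0.07 for BZIP60 and ATERDJ3B. For CRT1b and ATERDJ3B it was 0.37, so the pair with the highest value differs between the measures. ATERDJ3B hardly varied outside cold-treated Col-0.

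To set the 3 genes in their pathway, 74 genes of ER protein folding and quality control were written down by locus. Of them 24, the 3 included, had a probe set that names a single gene. These lists, like the 3 genes, were chosen with earlier results of these data known. None of 11 listed protein disulfide isomerase and oxidase genes was among the 24, and BiP and IRE1 were not either, so these are not analysed here. In ozs3 7 of the 24 rose in the cold and 6 fell, with a median difference of 0.02, where over all probe sets 24.9% rose, 26.2% fell and the median was 0.05. In Col-0 11 rose and 7 fell, with a median of 0.21, where over all probe sets 20.4% rose, 23.5% fell and the median was 0.00. Without BZIP60, CRT1b and ATERDJ3B, 5 of 21 rose and 6 fell in ozs3, and 9 rose and 7 fell in Col-0. The counts of the 24 in ozs3 depend on scaling. With every array set to 1 common median 12 rose and 4 fell, while the median of all probe sets moved to 0.18. In Col-0 that scaling gave 11 risen and 6 fallen. Of the root markers XTH26 fell by −1.83 ± 0.26 in ozs3 and by −0.81 ± 0.26 in Col-0, and EXPA18 by −0.65 ± 0.16 in ozs3 and by −0.92 ± 0.16 in Col-0. The XTH26 fall in Col-0 did not pass with Col-0 replicate 2 at 4 °C left out (−0.56, adjusted p = 0.110), or replicate 1 (0.0609) or 3 (0.0665) of Col-0 at 23 °C. The third, EXPA7, differed by 0.43 ± 0.18 in ozs3 (adjusted p = 0.0568) and by −0.10 ± 0.18 in Col-0 (adjusted p = 0.702). In ozs3 EXPA7 was called higher with the replicate number as a block (adjusted p = 4.98e-04) and under 8 other alternatives (0.0182 to 0.0487). Of the shoot markers, RCA fell in Col-0 (−0.62 ± 0.17, adjusted p = 0.00854) and did not pass in ozs3 (−0.09 ± 0.17, adjusted p = 0.677). PRK and SBPASE passed in neither genotype. The part of these marker values in the ER gene results was not tested.

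Among the sensors and transcription factors, BZIP17 was the 1 listed gene besides BZIP60 that rose. It rose by 0.57 ± 0.09 in ozs3 (adjusted p = 1.38e-04), and in Col-0 its difference was 0.19 ± 0.09 (adjusted p = 0.122). The interaction for BZIP17 did not pass (0.39 ± 0.13, adjusted p = 0.0806), but it did with the replicate number as a block (adjusted p = 0.0355) or when the array of Col-0 replicate 3 at 4 °C was left out (0.0317). BZIP28 fell in both genotypes, by −0.34 ± 0.10 in ozs3 and −0.36 ± 0.10 in Col-0, and with 1 common median its fall in ozs3 did not pass (adjusted p = 0.0676). S1P, the site-1 protease, fell likewise, by −0.59 ± 0.08 in ozs3 and −0.50 ± 0.08 in Col-0. Another locus of this list, AT4G20310, differed by −0.10 ± 0.09 in ozs3 (adjusted p = 0.403) and fell by 0.41 ± 0.09 in Col-0.

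Of the 3 other chaperone genes, 1 rose in ozs3 and all 3 rose in Col-0. The difference of the cold responses passed for ATERDJ2B alone, and that call ended with most single arrays left out and with 1 common median (adjusted p = 0.0528). ATERDJ2B, a J protein of the ER membrane, stood at 6.75, 6.78 and 6.78 in ozs3 at 4 °C, against 6.61, 7.14 and 7.06 in ozs3 at 23 °C, and these overlapped. In Col-0 it stood at 7.45, 7.47 and 7.54 at 4 °C, all above 6.69, 7.22 and 6.83 at 23 °C. Its difference was −0.16 ± 0.14 in ozs3 (adjusted p = 0.353), and it rose by 0.57 ± 0.14 in Col-0 (adjusted p = 0.00428). ATERDJ2A, a close relative, rose in both genotypes, by 0.65 ± 0.09 in ozs3 and 0.52 ± 0.09 in Col-0, with no difference between them that passed (0.14 ± 0.13, adjusted p = 0.534, 95% interval −0.14 to 0.41). AT4G16660 differed by 0.15 ± 0.12 in ozs3 (adjusted p = 0.290) and rose by 0.51 ± 0.12 in Col-0 (adjusted p = 0.00255), and the interaction did not pass (−0.35 ± 0.16, adjusted p = 0.196, 95% interval −0.71 to 0.00). With 1 common median AT4G16660 passed in ozs3 too (0.29, adjusted p = 0.0494).

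AT5G07340, the 1 other gene of the lectin chaperone list with a probe set, moved very much like CRT1b. It stood at 8.02, 8.29 and 8.22 in ozs3 at 4 °C, against 7.62, 7.63 and 7.65 in ozs3 at 23 °C. In Col-0 it stood at 8.94, 8.95 and 9.06 at 4 °C, against 7.55, 7.64 and 7.55 at 23 °C. Cold-treated Col-0 was again clear of all other arrays. The gene rose by 0.54 ± 0.08 in ozs3 and by 1.41 ± 0.08 in Col-0, and these rises differed by −0.86 ± 0.12 (adjusted p = 0.00114).

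Genes of ER-associated degradation, which takes misfolded proteins out of the ER, mostly fell or did not pass. The derlin gene DER2.1 fell by −0.95 ± 0.12 in ozs3 and by −1.02 ± 0.12 in Col-0. OS9, a lectin that recognises misfolded glycoproteins, fell by −0.54 ± 0.09 in ozs3 and by −0.46 ± 0.09 in Col-0. DER2.2, a further derlin gene, differed by 0.06 ± 0.08 in ozs3 (adjusted p = 0.503) and rose by 0.46 ± 0.08 in Col-0 (adjusted p = 1.76e-04). With 1 common median DER2.2 passed in ozs3 as well (0.20, adjusted p = 0.0458). DER1 and UBC32 did not pass in either genotype, with differences of −0.20 to −0.14. In Col-0 DER1 was called once replicate 2 of Col-0 at 23 °C was left out (−0.28, adjusted p = 0.0233) or with array weights (0.0242), and in ozs3 with repeated quantile normalization (−0.23, adjusted p = 0.0456). AT4G29960 fell by −0.32 ± 0.08 in ozs3 and by −0.21 ± 0.08 in Col-0. The Col-0 fall of AT4G29960 ended when any 1 of 7 arrays was left out, the highest adjusted p being 0.136 for replicate 2 of Col-0 at 4 °C, and with 1 common median AT4G29960 passed in neither genotype (adjusted p = 0.0603 in ozs3 and 0.135 in Col-0).

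In the remaining lists the translocon loci AT1G29310 and AT2G34250 rose in both genotypes. AT1G29310 rose by 0.68 ± 0.09 in ozs3 and by 0.78 ± 0.09 in Col-0, and AT2G34250 by 0.44 ± 0.09 in ozs3 and by 0.61 ± 0.09 in Col-0. AT3G63460 (SEC31B), a coat protein gene of vesicles that leave the ER, differed by 0.16 ± 0.08 in ozs3 (adjusted p = 0.112) and rose by 0.45 ± 0.08 in Col-0. With 1 common median AT3G63460 passed in ozs3 (0.29, adjusted p = 0.00934), as did SEC22 (0.19, adjusted p = 0.0484), which otherwise passed in neither genotype. The glycosylation locus AT1G76400 differed by 0.23 ± 0.09 in ozs3 (adjusted p = 0.0533) and rose by 0.51 ± 0.09 in Col-0 (adjusted p = 4.10e-04). In ozs3 AT1G76400 passed with the replicate number as a block (adjusted p = 0.0390), and when any 1 of Col-0 replicates 2 and 3 and ozs3 replicate 1 at 4 °C was left out (0.0326 to 0.0461). With 1 common median the AT1G76400 difference in ozs3 was 0.36 (adjusted p = 0.00619). AT2G01720 of the same list did not pass in either genotype. GAMMA-VPE, a vacuolar protease gene, fell by −0.57 ± 0.11 in ozs3 and by −0.58 ± 0.11 in Col-0.

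**Figure D3:**
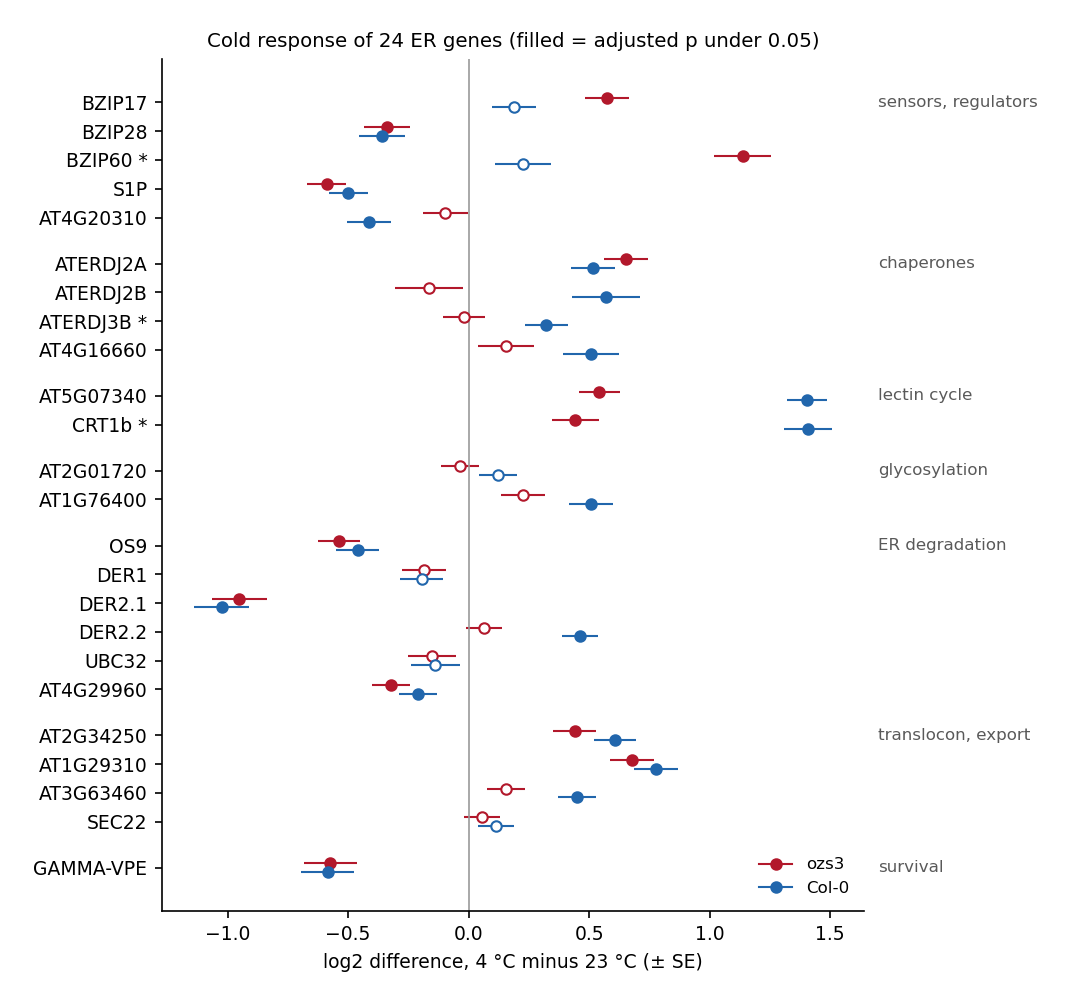
Log2 difference between 4 °C and 23 °C (horizontal axis, points with SE) in ozs3 (red) and Col-0 (blue) for 24 ER genes grouped by role, with asterisks at BZIP60, CRT1b and ATERDJ3B and filled points at an adjusted p under 0.05. The 2 lectin chaperone genes lie at 0.54 and 0.44 in ozs3 and at 1.41 in Col-0, while BZIP60 lies at 1.14 in ozs3 and 0.23 in Col-0.

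Set directly against each other at 4 °C, ozs3 and Col-0 differed in 9 of the 24 genes, 2 higher and 7 lower in ozs3, with a median of −0.14. Without BZIP60, CRT1b and ATERDJ3B, 6 of 21 differed, 1 higher and 5 lower. The lists of these 21, like the 3 genes, were chosen with earlier results of these data known. Over all probe sets 6.42% were higher, 8.20% were lower and the median was 0.02. The higher genes were BZIP60 and AT4G20310 (0.41 ± 0.09, adjusted p = 0.00915). Both are from the list of sensors and transcription factors, in which 2 of 5 genes passed. That list also holds the protease gene S1P, which did not pass (−0.18 ± 0.08, adjusted p = 0.156). The lower genes included AT5G07340, CRT1b, ATERDJ2B, ATERDJ3B and AT4G16660, which are 5 of the 6 genes in the chaperone and lectin lists. CRT1b and ATERDJ3B, which belong to the 3 genes described here, are counted among these 5. AT5G07340 was lower by 0.81 ± 0.08 (−0.81, adjusted p = 6.61e-05) and ATERDJ2B by 0.71 ± 0.14 (−0.71, adjusted p = 0.00441). AT4G16660 was lower too (−0.44 ± 0.12, adjusted p = 0.0211). Leaving out 1 cold array ended that call in 3 cases: Col-0 replicate 3 (adjusted p = 0.0889), ozs3 replicate 2 (0.0743) and ozs3 replicate 3 (0.0674). ATERDJ2A was the chaperone gene that did not pass (0.11 ± 0.09, adjusted p = 0.462).

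The other genes lower in ozs3 at 4 °C were SEC22, a SNARE protein gene of transport between ER and Golgi (−0.42 ± 0.08, adjusted p = 0.00225), and DER2.2 (−0.26 ± 0.08, adjusted p = 0.0318). The DER2.2 call ended with any of the 3 Col-0 arrays or with ozs3 replicate 1 or 3 at 4 °C left out (adjusted p = 0.0590 to 0.105), with 1 common median (0.0972) and with the 6 arrays at 4 °C alone in the fit (0.0869). BZIP17 did not pass (0.25 ± 0.09, adjusted p = 0.0918), but did with the replicate number as a block (adjusted p = 0.0422) or with Col-0 replicate 3 at 4 °C left out (0.0289). With the block AT1G29310 was called lower as well (−0.28, adjusted p = 0.0459). The root hair gene XTH26 also differed at 4 °C, at 6.32 in ozs3 and 7.60 in Col-0 (−1.28 ± 0.26, adjusted p = 0.00520). EXPA18 (−0.04 ± 0.16) and EXPA7 (0.55 ± 0.18, adjusted p = 0.0540) did not pass. EXPA7 was called higher with the replicate number as a block (adjusted p = 5.70e-04) and under several other alternatives (0.0285 to 0.0498). The summed level of the 3 root markers at 4 °C ran from 23.4 to 25.2 in ozs3 and from 24.1 to 25.8 in Col-0, and that of the 3 shoot markers from 15.1 to 15.5 in ozs3 and from 14.9 to 15.5 in Col-0. Their part in the ER gene differences was not tested.

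At 23 °C 1 of the 24 genes (4.17%) differed between the genotypes, which is near the share of all probe sets, 6.34%. That gene, SEC22, was lower by 0.36 ± 0.08 in ozs3 (−0.36, adjusted p = 0.0114), where 3.17% of all probe sets were lower and 3.17% higher. Leaving out 1 array at 23 °C ended the SEC22 call for ozs3 replicate 2 (adjusted p = 0.0521) and for Col-0 replicate 3 (0.0503). The other 23 differences lay between −0.18 and 0.24.

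**Figure D4:**
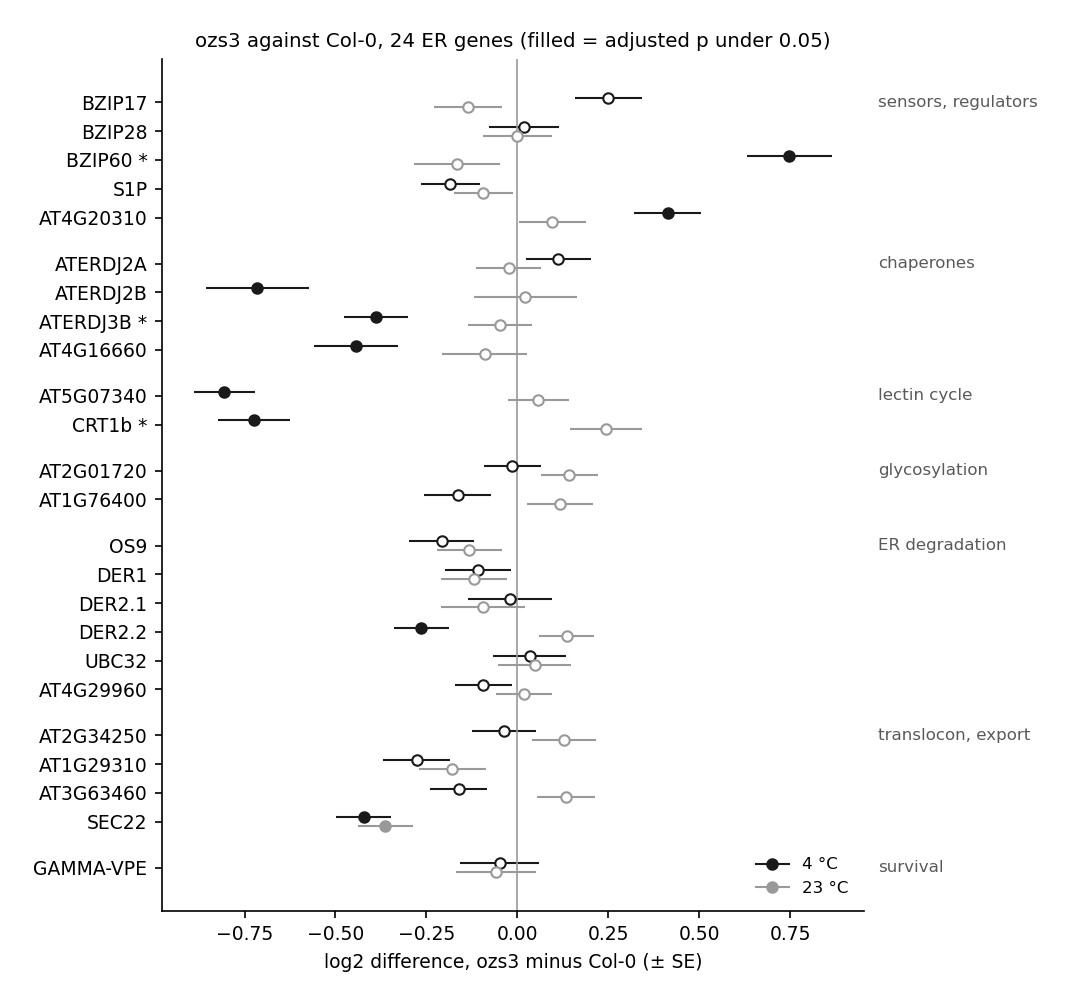
Log2 difference between ozs3 and Col-0 (horizontal axis, points with SE) at 4 °C (black) and at 23 °C (grey) for the same 24 genes by role, with asterisks at BZIP60, CRT1b and ATERDJ3B and filled points at an adjusted p under 0.05. At 4 °C 7 genes are called lower and 2 higher in ozs3, and at 23 °C SEC22 is called lower at −0.36.

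The cold response differed between genotypes in 5 of the 24 genes by the interaction term, 1 with a larger value in ozs3 (BZIP60) and 4 with a smaller one. Over all probe sets 4.30% had a larger and 5.82% a smaller response. The 4 were CRT1b, AT5G07340, ATERDJ2B (−0.74 ± 0.20, adjusted p = 0.0338) and DER2.2 (−0.40 ± 0.11, adjusted p = 0.0317). Without BZIP60, CRT1b and ATERDJ3B the count was 3 of 21 (14.3%), where 10.1% of all probe sets passed. At 23 °C the ATERDJ2B call ended with ozs3 replicate 2 (adjusted p = 0.0861) or 3 (0.0650), or Col-0 replicate 1 (0.0739) or 3 (0.0719), left out. It also ended with any 1 of the 6 arrays at 4 °C left out (0.0558 to 0.0718), and with repeated quantile normalization (0.0677). For DER2.2 the arrays whose loss ended the call were, at 23 °C, ozs3 replicates 1 (0.0713) and 3 (0.0611) and Col-0 replicates 2 (0.0621) and 3 (0.0593). At 4 °C they were ozs3 replicates 1 (0.0579) and 3 (0.0523) and Col-0 replicates 1 (0.0575), 2 (0.0696) and 3 (0.0501). With 1 common median the ATERDJ2B and DER2.2 calls ended and BZIP17 was called, so that 2 genes had a larger and 2 a smaller response. BZIP60, CRT1b and AT5G07340 kept their calls under every alternative tried.

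The genes whose pattern over the 12 arrays was most like each of the 3 were sought among 8961 named genes above the dim limit. Nearest to BZIP60 were AT3G10930 (Pearson r = 0.98), AT2G32020 (0.97), AT2G39650 (0.97), AT1G43910 (0.96) and AT3G62260 (0.96). Their cold differences ran from 1.41 to 3.59 in ozs3 and from 0.54 to 1.01 in Col-0. Nearest to CRT1b were AT1G52630, AT3G07510, AT4G34630, AT4G29700 and SAPX, a stromal ascorbate peroxidase gene, all at 0.98. Their cold differences ran from 0.20 to 0.65 in ozs3 and from 0.66 to 1.66 in Col-0. Nearest to ATERDJ3B were AT2G14460, AT5G04420, AT3G44430, AT4G17420 and AT5G19110, at 0.94 to 0.95.

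Of the listed ER genes, AT5G07340 ranked 21st in likeness to CRT1b (r = 0.96) and AT4G16660 ranked 16th in likeness to ATERDJ3B (r = 0.89). The ER gene most like BZIP60 was BZIP17, at rank 252 (r = 0.86). All these values rest on the same 12 arrays in 4 groups, and a ranking by Spearman correlation shared 1 of the 5 genes nearest to BZIP60, 0 of those nearest to CRT1b and 2 of those nearest to ATERDJ3B.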

How the data were processed

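The authors deposited log2 values that RMA gave for each array, per the submitters' processing notes; RMA corrects background, normalizes arrays to each other and summarises the probes of a set. No version is stated in these sources, and the log2 scale was read from the values (2.91 to 15.0). Of 22810 probe sets, 64 controls were left out. The platform table named 1 gene for 13513 probe sets, and loci came by gene ID from RefSeq's table of the TAIR10.1 assembly (13436 matched). The brightest probe set stood for a gene.

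The 4 group means were estimated jointly from all 12 arrays in limma 3.58.1 (R 4.3.3). Moderated two-sided tests had 8 residual plus 5.42 prior degrees of freedom. They were adjusted by Benjamini-Hochberg over 22746 probe sets within each of 5 contrasts. The fit was also run on simulated arrays with independent noise, which lacked the shared deviations of same-numbered arrays given below. Intervals are 95%. The precision is limited by the number of arrays. Replicates are labelled biological, and the tests set each difference against the spread of arrays within groups, pooled over the 4 groups. The replicate number was left out of the main fit and entered only in the block alternative.

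Same-numbered arrays deviated together from their group means (r = 0.195 to 0.273 for cold in Col-0, 0.294 to 0.473 and 0.198 to 0.353 for genotype at 23 °C and 4 °C), so the numbers pair them there, as seen in the data; for cold in ozs3 1 pair was at 0.0809. The 3 genes and all lists were chosen with earlier results of these data known. Named are the 3 genes, all listed ER genes with a probe set and the 5 most similar genes each. Of the bZIP genes, found by name in the annotation, those with the 2 largest called changes each way are named. Alternatives were the replicate block, an intensity trend, robust eBayes, only the arrays compared, repeated quantile normalization, 1 common median, array weights, no dim probe sets (mean above 5 kept), the mean of a gene's probe sets, and leaving out each array. Promoter motifs were planned but no sequence was used here.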

Additional observations from a re-analysis of the deposited data

Results flagged for a closer look

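The cold response differed between ozs3 and Col-0, by the interaction term of the fit over all probe sets, for 5 of the 24 ER genes. Without BZIP60, CRT1b and ATERDJ3B it differed for 3 of 21 (14.3%), and over all probe sets for 10.1%. The lists of these 21 were also chosen with earlier results of these data known. The response of BZIP60 was larger in ozs3 than in Col-0, by 0.91. CRT1b (−0.97), AT5G07340 (−0.86), ATERDJ2B (−0.74) and DER2.2 (−0.40) had smaller responses in ozs3. The ATERDJ2B and DER2.2 calls ended with 1 common median and when any of most single arrays was left out. Those of BZIP60, CRT1b and AT5G07340 held under every alternative tried. With 3 arrays in each group, single arrays were not screened for outlying values.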

How the results depend on the processing

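All 15 results on BZIP60, CRT1b and ATERDJ3B (3 genes in 5 comparisons) kept their direction, where called, and their side of the threshold in all 297 alternatives. Over these, BZIP60 ran from 1.06 to 1.27 for cold in ozs3 and from 0.83 to 1.04 for the interaction, and CRT1b from −1.05 to −0.88 for the interaction. ATERDJ3B came nearest to the threshold, at adjusted p = 0.0415 for cold in Col-0 and 0.0411 for genotype at 4 °C. Its uncalled cold difference in ozs3 took either sign, from −0.06 to 0.12. For the 21 other ER genes, 2014 of 2084 repeated results kept their side, 46 calls were lost, 24 were gained and none reversed.

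With the replicate number as a block 2253 probe sets were called between genotypes at 23 °C and with array weights 2323, against 1442. Leaving out 1 array gave 767 to 1551 there, and 1439 to 2279 for the interaction (2300 with all arrays). For the interaction 3 to 4 ER genes were called with 1 array left out, against 5, and between genotypes at 23 °C 0 to 1. With the block the calls for the interaction numbered 6 ER genes. Setting 1 common median moved the share of higher calls in ozs3 to 66.2%, against 48.8%, at 4 °C between genotypes to 61.3%, against 43.9%, and for the interaction to 64.4%, against 42.5%. The causes were not tested. The mean of a gene's probe sets applied to DER1 alone among the ER genes, whose other probe set was dim, and it changed no call. Only the 12 arrays of 1 experiment limit the precision here.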

Other observations

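BZIP60 belongs to the bZIP (basic leucine zipper) family, of which 22 genes were found by that name in the annotation. Family genes annotated only under other names are not counted. In the cold 7 rose and 5 fell in ozs3, and 5 rose and 6 fell in Col-0. These 12 and 11 of 22 lie near the share of all probe sets called, 51.1% in ozs3 and 43.9% in Col-0. Among these 22 the largest rises in ozs3 were those of bZIP44 (1.65 ± 0.10) and bZIP58 (1.20 ± 0.15). In Col-0 they were those of bZIP44 (1.11 ± 0.10) and BZIP53 (0.63 ± 0.15). The largest falls were those of EEL (−1.85 ± 0.10) and BZIP61 (−1.20 ± 0.16) in ozs3 and of EEL (−1.83 ± 0.10) and BZIP24 (−0.89 ± 0.15) in Col-0. Between genotypes at 4 °C 4 of the 22 were higher and 2 lower in ozs3, where 6.42% of all probe sets were higher and 8.20% lower, with bZIP44 at 11.45 in ozs3 and 10.85 in Col-0 (0.59 ± 0.10, adjusted p = 0.00211) next after BZIP60. At that temperature FD stood at 5.82 in ozs3 and 6.53 in Col-0 (−0.71 ± 0.13, adjusted p = 0.00266).

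The gene bZIP58 had a larger interaction than BZIP60 (1.11 ± 0.21, adjusted p = 0.00526). Its levels differed from those of BZIP60 in where the gap lay: at 4 °C it stood at 9.62 in ozs3 and 9.39 in Col-0 (0.23 ± 0.15, adjusted p = 0.345), and at 23 °C at 8.42 in ozs3 and 9.30 in Col-0 (−0.89 ± 0.15, adjusted p = 0.00274). All 22 genes were described on the same fit, with no test of the family as a whole.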
